A study of Mus musculus with 24 samples.

Results

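Among 7 RNA-seq libraries of hippocampal microglia, 3 held a normalized Ttr count above 10000 (Saline-2, PF4-2 and PF4-4) and 4 held less (Saline-3, Saline-4, PF4-1 and PF4-3). Ttr encodes transthyretin, the carrier protein that choroid plexus epithelium secretes into cerebrospinal fluid. These 2 sets of libraries, called here the high and the low Ttr class, were compared gene by gene to describe which transcripts came with Ttr, whatever the treatment. Of 24411 genes in the table, 11320 reached a normalized count of 10 in at least 3 libraries. The libraries of each class were chosen by their measured Ttr, so differences between them are descriptions without a test. The microglia came from hippocampi of male C57/Bl6 mice aged 20 months, given 8 injections of 100 µl over 24 days of saline (3 libraries) or of recombinant mouse PF4 (platelet factor 4) at 5 µg/ml (4 libraries). Hippocampi were dissociated with enzymes, myelin was removed with beads, and cells were captured on CD11b beads, which also bind other CD11b-bearing leukocytes and macrophages. The other 17 of the 24 libraries of the series came from bulk hippocampi of aged mice of the same strain given saline (5), young plasma (6) or the young platelet fraction (6), and were not used to form the classes.

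The choroid plexus hangs in the brain ventricles, and the part in the lateral ventricle lies against the hippocampus. Its epithelium makes cerebrospinal fluid by moving ions, water and vitamins across tight junctions, secretes carrier proteins, and stands on a stroma of fibroblasts, leaky vessels and macrophages. In bulk libraries, more cells of a type and more RNA per cell cannot be told apart.

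Depth overlapped between the classes. Counted reads ranged from 19855188 to 27262125 in the high class and from 21044292 to 36342162 in the low class, and the genes detected ranged from 11343 to 11556 and from 10773 to 12333. Many genes were on in one library and off in another of the same class: 12.7% of the genes tested were at 0 in one and at 100 or more in another library of the high class, and 12.9% in the low class. PF4-4 stood apart in oligodendrocyte transcripts, with a summed level of 198380 against 5135 to 34387 in the other 6 libraries, and PF4-1 stood apart in neutrophil transcripts, with 18277 against 598 to 6068. The number of libraries in each group matches the number of mice given for it in the study, so replicates were taken as separate animals.

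The cut fell in a wide gap. The normalized Ttr count was 501960 in PF4-2, 345809 in PF4-4 and 197501 in Saline-2, and 884 in PF4-1, 781 in Saline-3, 655 in Saline-4 and 641 in PF4-3. The lowest library above the cut therefore held 197501 and the highest library below it 884. Enpp2, which encodes autotaxin, the enzyme that makes lysophosphatidic acid (chromosome 15, 54838901 to 54952789, GRCm38), was at 170537 in PF4-2, 135475 in PF4-4 and 64531 in Saline-2. In the low class Enpp2 was at 841 in PF4-1, 410 in Saline-3, 278 in Saline-4 and 235 in PF4-3. All 3 libraries high in Ttr were high in Enpp2, with the same order among them. Kcnj13, an inward rectifier potassium channel of the apical membrane (chromosome 1, 87384577 to 87394729), was at 10923, 9695 and 2935 in PF4-2, PF4-4 and Saline-2. The low class held 98.9 Kcnj13 in PF4-1, 15.7 in Saline-4, 14.8 in Saline-3 and 8.99 in PF4-3. Kcnj13 overlaps Gigyf2 on the genome, and Gigyf2 was at 240, 569 and 1411 in PF4-2, PF4-4 and Saline-2 against 1.23 to 2467 in the low class, so its classes overlapped. Whether strand was used in counting is not given in the sources used here, so reads of overlapping genes, such as Col9a3 and Tcfl5, Car14 and Aph1a, or Igf2 and Igf2os, cannot be told apart. Folr1, the folate receptor that carries folate into cerebrospinal fluid (chromosome 7, 101858331 to 101870788), was at 6362 in PF4-2, 5194 in PF4-4 and 3292 in Saline-2. In the low class it was at 19.7 in Saline-3, 13.9 in PF4-3, 12.1 in Saline-4 and 8.37 in PF4-1. On the scale of log2(normalized count + 1), the mean of the high class exceeded that of the low class by 8.79 for Ttr, 8.20 for Enpp2, 8.22 for Kcnj13 and 8.42 for Folr1.

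**Figure D1:**
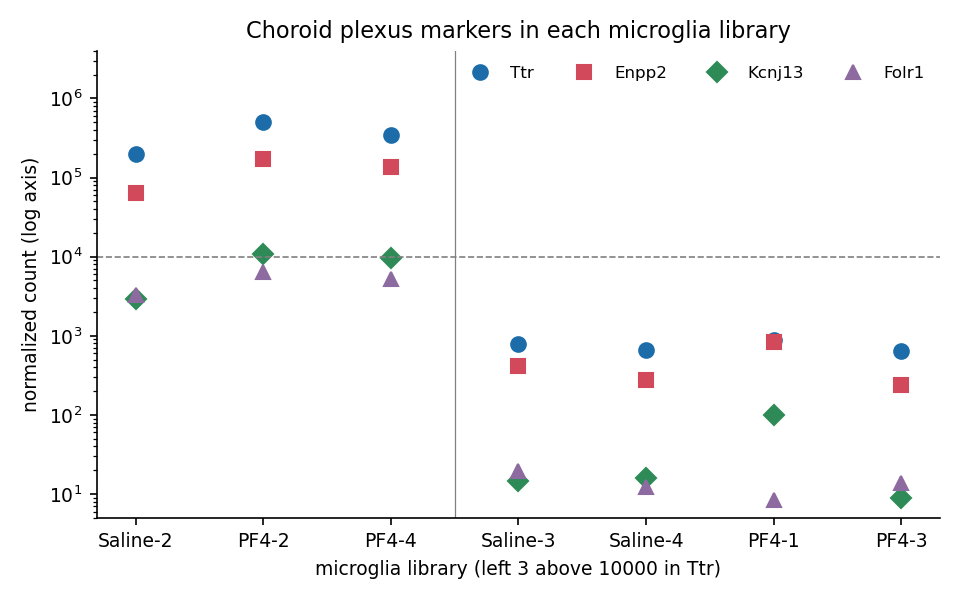
Normalized count of Ttr, Enpp2, Kcnj13 and Folr1 (log axis) in each of the 7 microglia libraries, with 1 point per gene and library and a dashed line at the Ttr cut of 10000. All 4 markers were higher in each of the 3 libraries left of the vertical line than in any of the 4 at its right.

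Promoter sequence of 3 genes of the choroid plexus list is shown here to set the transcripts beside the DNA at their starts: the marker Kcnj13, and Car14 and Vat1l, which were chosen because their windows hold the core site of OTX2, the transcription factor that maintains choroid plexus epithelium. Each line is the RefSeq window (GRCm38.p6, the mm10 assembly) from 250 bases before to 50 after a transcription start, 5′ to 3′ on the strand of the gene, and capitals mark TAATCC or its reverse complement GGATTA. The windows are chr1:87394680-87394979 on the minus strand for Kcnj13, chr3:95904636-95904935 on the minus strand for Car14 and chr8:114205390-114205689 on the plus strand for Vat1l.
Kcnj13: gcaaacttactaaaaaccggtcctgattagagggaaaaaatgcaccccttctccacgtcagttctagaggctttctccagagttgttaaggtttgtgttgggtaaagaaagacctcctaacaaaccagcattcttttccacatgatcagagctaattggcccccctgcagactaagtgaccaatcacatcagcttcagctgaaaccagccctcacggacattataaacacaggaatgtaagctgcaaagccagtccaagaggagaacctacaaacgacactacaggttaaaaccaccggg
Car14: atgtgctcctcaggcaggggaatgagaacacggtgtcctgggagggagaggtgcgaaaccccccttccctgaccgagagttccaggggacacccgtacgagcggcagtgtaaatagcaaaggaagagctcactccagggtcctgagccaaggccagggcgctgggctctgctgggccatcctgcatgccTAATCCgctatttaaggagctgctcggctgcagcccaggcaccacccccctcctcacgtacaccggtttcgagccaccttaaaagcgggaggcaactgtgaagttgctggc
Vat1l: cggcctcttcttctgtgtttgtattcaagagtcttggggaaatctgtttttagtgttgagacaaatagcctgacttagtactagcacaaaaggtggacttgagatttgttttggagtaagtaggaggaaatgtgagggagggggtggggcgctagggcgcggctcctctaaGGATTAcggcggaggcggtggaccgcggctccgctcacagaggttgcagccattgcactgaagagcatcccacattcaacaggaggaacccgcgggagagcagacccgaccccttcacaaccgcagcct
The Car14 window holds TAATCC starting 61 bases before the start, the Vat1l window holds GGATTA starting 79 bases before it, and the Kcnj13 window holds neither. Of the 51 genes of the choroid plexus list, 41 matched the promoter table, with 57 windows, and 10.5% of these windows hold the site on either strand. The site is in 7.06% of all 32851 windows and in 5.52% of the 11167 windows of genes tested in microglia. It is in 4.87% of the 411 windows of genes called higher in the high class and in 8.96% of the 279 windows of genes called lower. These are matches of letters and not binding sites.

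A gene was called when the 2 classes did not overlap and their means differed by at least 1 on the log2 scale. By this rule 424 genes were higher in the high class (3.75% of the genes tested) and 275 were lower (2.43%). The median difference over all genes tested was -0.05. Of the 424, 153 differed by 5 or more, and 346 were at least 1 higher within the saline libraries and within the PF4 libraries alike. The direction within each treatment was fixed by the rule of no overlap, so only the size is informative. Of the 424, 74 passed the filter on low counts through the high class alone and so had to differ, and 69 of the 275 passed through the low class alone. Of the 19 lists, that of the choroid plexus epithelium had the most genes called, but it was also the longest. On the motile cilia list, 4 of 5 tested genes were called. Of the 51 genes listed as markers of the choroid plexus epithelium, 41 were tested, 34 were called higher and 0 lower. The median difference of the 41 was 7.80. Of the 41, 16 passed the filter only through the high class. The list contains the 4 markers, and Ttr itself set the classes.

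**Figure D2:**
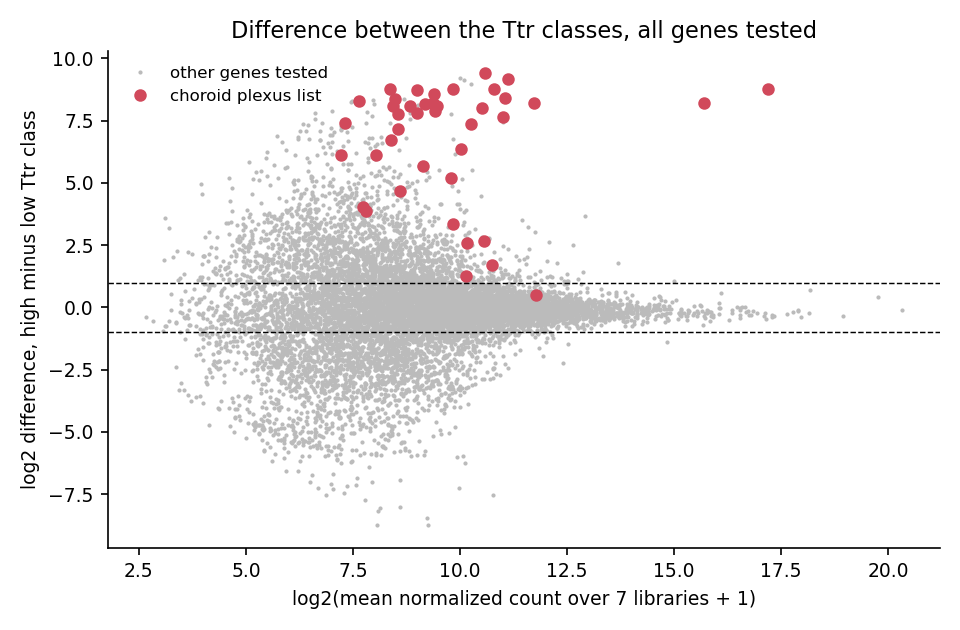
Difference between the class means (y axis, log2 scale, high minus low) against log2(mean normalized count over the 7 libraries + 1) (x axis) for the 11320 genes tested, with dashed lines at 1 and -1. The choroid plexus list (41 genes tested, larger points) lies above 0 throughout, with a median of 7.80 against -0.05 over all genes.

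Of 12 secreted or extracellular proteins of the epithelium, 11 were tested and 10 were called higher. Sostdc1, a secreted antagonist of BMP and WNT signalling, was at 6292, 4987 and 4408 in PF4-2, PF4-4 and Saline-2 against 5.72 to 9.13 in the low class. Col9a3, a chain of collagen IX, differed most of all genes in the rule for named genes, by 9.40, with 5271 in PF4-4, 4189 in PF4-2 and 1361 in Saline-2 against 1.23 to 8.17. Kl, which encodes the anti-ageing hormone and FGF23 co-receptor klotho, was at 2454, 1416 and 837 in PF4-2, PF4-4 and Saline-2 against 1.63 to 3.70. Sostdc1, Col9a3 and Kl passed the filter through the high class alone and so had to differ. Igfbp2, a binding protein of insulin-like growth factors, was at 8203 in PF4-2, 3654 in PF4-4 and 2426 in Saline-2, and in the low class PF4-3 held 172 against 6.43 to 14.5 in the other 3. 1500015O10Rik, the gene of the secreted peptide augurin, was at 5360, 4972 and 2059 in PF4-2, PF4-4 and Saline-2 against 6.17 to 13.7.

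Of 20 channels, transporters and other membrane proteins, 18 were tested and 14 were called higher. Aqp1, the apical water channel, was at 1152 in PF4-2, 1007 in PF4-4 and 333 in Saline-2 against 0 to 2.86 in the low class. Slc4a5, a sodium bicarbonate cotransporter, was at 878 in PF4-2, 120 in PF4-4 and 37.2 in Saline-2 against 0.714 to 2.47, so its high libraries spread more widely than those of Aqp1. Slc4a10, a bicarbonate transporter of the basolateral side, had the reverse order, with 598 in Saline-2, 404 in PF4-4 and 384 in PF4-2 against 0 to 1.43. Aqp1, Slc4a5 and Slc4a10 passed the filter through the high class alone and so had to differ. Car12 and Car14 are carbonic anhydrases. Car12 ranged from 968 to 3885 against 3.70 to 118, and Car14 from 1050 to 1937 against 0 to 64.6. The 4 tested members without a call here were Slc4a2, Slc31a1, Abca4 and Tmem72. Slc31a1, the copper importer, was expressed in every library, at 2246 to 5644 in the high and 2143 to 3812 in the low class. Slc4a2, an anion exchanger, was at 880 to 2070 against 3.70 to 1612.

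Of 6 junction and keratin genes, 3 were tested, and Cldn1 and Cldn2, claudins of the epithelial tight junction, were called higher. Cldn2 was at 1933 in PF4-2, 1166 in PF4-4 and 451 in Saline-2 against 0.817 to 9.13, and Cldn1 at 926, 790 and 569 against 1.63 to 32.7. Ezr, which links membrane to actin in microvilli, overlapped between the classes because PF4-1 held 1515 and PF4-2 held 1456. Krt8 and Krt18, keratins of simple epithelia, did not pass the filter, since both were high in PF4-2 (1535 and 4010) and PF4-4 (1077 and 1730) and near 0 in Saline-2 (4.97 and 2.48). Of 6 receptors and enzymes, 5 were tested and all 5 were called higher. Prlr, the prolactin receptor, was at 3371, 2278 and 735 in PF4-2, PF4-4 and Saline-2 against 2.28 to 4.09. Htr2c, the serotonin receptor 2C, was at 1416 in PF4-2, 941 in PF4-4 and 45.9 in Saline-2 against 0 to 1.63. Cldn2, Prlr and Htr2c passed the filter through the high class alone and so had to differ.

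The transcription factors of the list differed within the high class. Msx1 was at 2304, 1762 and 1747 in PF4-2, PF4-4 and Saline-2, and at 233 in PF4-1, 98.9 in PF4-3, 93.5 in Saline-4 and 2.47 in Saline-3. Otx2 was at 605 in PF4-2 and 555 in PF4-4 but at 2.48 in Saline-2, close to the low class (0 to 2.45). Lmx1a, a factor of the roof plate from which the choroid plexus arises, was at 488 in Saline-2, 141 in PF4-4 and 0.964 in PF4-2, and at 0 in all 4 libraries of the low class. Otx2 and Lmx1a were thus not both present in Saline-2 or in PF4-2, and neither passed the filter. A normalized count of 10 was reached by 49 of the 51 listed genes in PF4-2, 49 in PF4-4 and 40 in Saline-2, against 18 in PF4-1, 17 in PF4-3, 13 in Saline-4 and 9 in Saline-3.

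**Figure D3:**
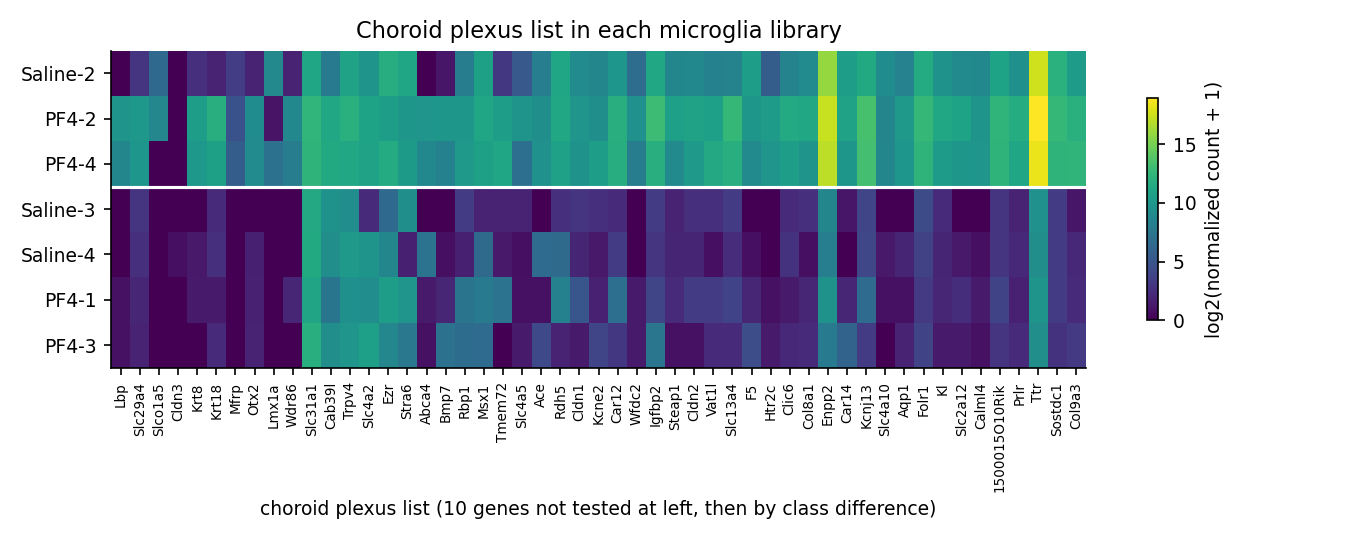
Heat map of log2(normalized count + 1) for the 51 genes of the choroid plexus list (columns) in the 7 microglia libraries (rows), with the high class above the white line. The 10 genes that were not tested stand at the left and the others are ordered by the class difference. Lbp, Bmp7, Abca4, Krt8, Krt18, Otx2, Tmem72, Slc29a4 and Wdr86 are dark in Saline-2 and bright in PF4-2 and PF4-4.

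The transcripts of the epithelium did not keep 1 fixed ratio to Ttr in the 3 high libraries. Per 1000 normalized counts of Ttr, Enpp2 was at 340 in PF4-2, 392 in PF4-4 and 327 in Saline-2, and Kl at 4.89, 4.10 and 4.24. Those 2 ratios varied least of the 33 members called higher other than Ttr, by 1.20-fold and 1.19-fold. Of the 33, 17 varied by at most 2-fold and 7 by at most 1.5-fold, with a median of 1.99-fold. Htr2c varied most, by 12.1-fold, followed by Slc4a5 at 9.28-fold and Slc13a4, a sulfate transporter, at 6.97-fold. In all 3 of these, Saline-2 was the lowest. In the low class Enpp2 stood at 951 per 1000 Ttr in PF4-1, 524 in Saline-3, 424 in Saline-4 and 367 in PF4-3. In 17 hippocampi the same ratio ranged from 672 to 2798 with a median of 852. Every microglia library but PF4-1 was therefore below the lowest hippocampus.

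Outside the choroid plexus list, the genes that differed most between the classes by the rule for named genes were Drc7, Spint2, Sulf1 and Ccdc108. Drc7, a subunit of the regulatory complex of motile axonemes, was at 3903 in PF4-4, 2528 in PF4-2 and 768 in Saline-2 against 0.761 to 7.41 in the low class. Spint2, an inhibitor of serine proteases on epithelia, was at 3653, 3308 and 690 in PF4-4, PF4-2 and Saline-2 against 0.714 to 4.94. Sulf1, a sulfatase of heparan sulfate (chromosome 1, 12692197 to 12861192), was at 3303, 2660 and 2585 in PF4-2, Saline-2 and PF4-4 against 2.86 to 8.37. Ccdc108, a component of motile cilia and flagella, was highest in Saline-2 at 1641, with 369 in PF4-2 and 275 in PF4-4 against 0 to 1.23. The differences were 9.21, 9.12, 8.98 and 8.61 on the log2 scale. Drc7, Spint2, Sulf1 and Ccdc108 passed the filter through the high class alone and so had to differ. Sh3d19, an adaptor protein, was at 203 to 260 in the high class and at 0 in all 4 libraries of the low class, at least 85.4-fold higher against a floor of 3 reads per library. It was 1 of 12 genes called higher whose low class was at 0 throughout, which also had to differ. Ptgds, the lipocalin-type prostaglandin D synthase of leptomeninges and choroid plexus, was at 5732, 4981 and 3420 in PF4-2, PF4-4 and Saline-2 and at 98.5 in Saline-4, 74.4 in PF4-3, 8.37 in PF4-1 and 6.17 in Saline-3. Sh3d19 and Ptgds were chosen after their values were seen.

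Genes lower in the high class formed no group on the lists. Of the 275, 206 were at least 1 lower within the saline and within the PF4 libraries alike, where the direction was again fixed by the rule. Kif3c, a kinesin motor of neurons, was at 0 in the 3 high libraries and at 734 in PF4-3, 529 in Saline-4, 365 in PF4-1 and 237 in Saline-3, at least 148-fold lower. Slc1a5, a neutral amino acid transporter, was at 0 in the 3 high libraries and at 982 in Saline-3, 463 in Saline-4, 422 in PF4-3 and 34.2 in PF4-1, at least 151-fold lower. Both were among 32 genes called lower at 0 in the whole high class. These 32 passed the filter through the low class alone and so had to differ. Calhm2, a channel of the calcium homeostasis modulator family, was at 552 to 1822 in the low class and at 10.4 in PF4-4 and 0 in the other 2. Ltf, lactoferrin of neutrophil granules, was at 50.9 in Saline-2, 14.5 in PF4-2 and 0.947 in PF4-4, and at 6642 in PF4-1, 3439 in Saline-4, 1351 in Saline-3 and 692 in PF4-3. All 6 tested neutrophil markers had a lower value in the high class and 0 of them were called, and their summed level overlapped (598 to 4506 against 1811 to 18277). The other genes by the rule for named genes were Ints1, Zfp251, Dph2, Usp40, Nudt1, Gna14, Trim17 and Ercc6l2. They ranged from 48.6 to 2098 in the low class and from 0 to 2.89 in the high class. They too passed the filter through the low class alone.

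Motile cilia are carried by ependyma and choroid epithelium. Of the 20 genes on the motile cilia list, 5 were tested and 4 called higher (Tppp3, Cfap126, Mia and Tekt1), against 3.75% of all genes. Mia, like Rarres2 on the same list, encodes a secreted protein and not a part of the cilium. Mia and Tekt1 passed the filter through the high class alone and so had to differ. The summed level of the list was 4351 in PF4-2, 2499 in PF4-4 and 2162 in Saline-2 against 109 to 322. Tppp3, a microtubule-bundling protein, was at 608 to 935 against 0 to 141, and Mia at 200 to 392 against 0 to 2.47. Foxj1, the factor that switches on motile cilia, was not among the 5 genes tested. Nor was Rsph1, which was at 616 in PF4-2 and 450 in PF4-4 but at 1.24 in Saline-2. Of 15 markers of fibroblasts and meninges, 6 were tested and 2 called higher (Igf2 and Apod), against 3.75% of all genes, and their summed level was 2669 to 4428 in the high and 248 to 369 in the low class. Igf2, a growth factor of choroid plexus and leptomeninges, accounted for most of that in the PF4 libraries, at 3236 in PF4-2, 2491 in PF4-4 and 586 in Saline-2 against 2.47 to 60.5. Dcn, the proteoglycan decorin that defines fibroblasts, was at 463 in Saline-2, 208 in PF4-2 and 0 in PF4-4.

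Of vessel markers, 0 of 14 endothelial and 0 of 8 tested mural genes were called, which at 3.75% of all genes called higher is too few genes to set the lists apart from the rest. The endothelial sum was 101861 in Saline-2, 68857 in PF4-2 and 21229 in PF4-4, and 96740 in PF4-1, 37741 in Saline-3, 26773 in PF4-3 and 18461 in Saline-4. Red cell transcripts had larger sums in PF4-2 (24612) and Saline-2 (21684) than in any low library, but PF4-4 (8968) was below PF4-1 (9955), and all 4 tested genes had a higher mean in the high class, with a median difference of 3.69 and 0 called. Of 11 tested astrocyte genes only Aldh1l1, a folate-metabolizing enzyme, was called, at 2704, 594 and 303 in PF4-2, PF4-4 and Saline-2 against 0.714 to 4.57. Aldh1l1 passed the filter through the high class alone and so had to differ. Slc1a3, the main astrocyte glutamate transporter, was at 4217 to 10836 in the high class and 4605 to 8278 in the low class. Of 3 tested genes of oligodendrocyte precursors, Olig1 was called higher (285 to 517 against 0 to 170), while Pdgfra and Cspg4 overlapped. Of the oligodendrocyte, neuron and lymphocyte lists, 0 of 6, 0 of 5 and 0 of 3 tested genes were called.

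**Figure D4:**
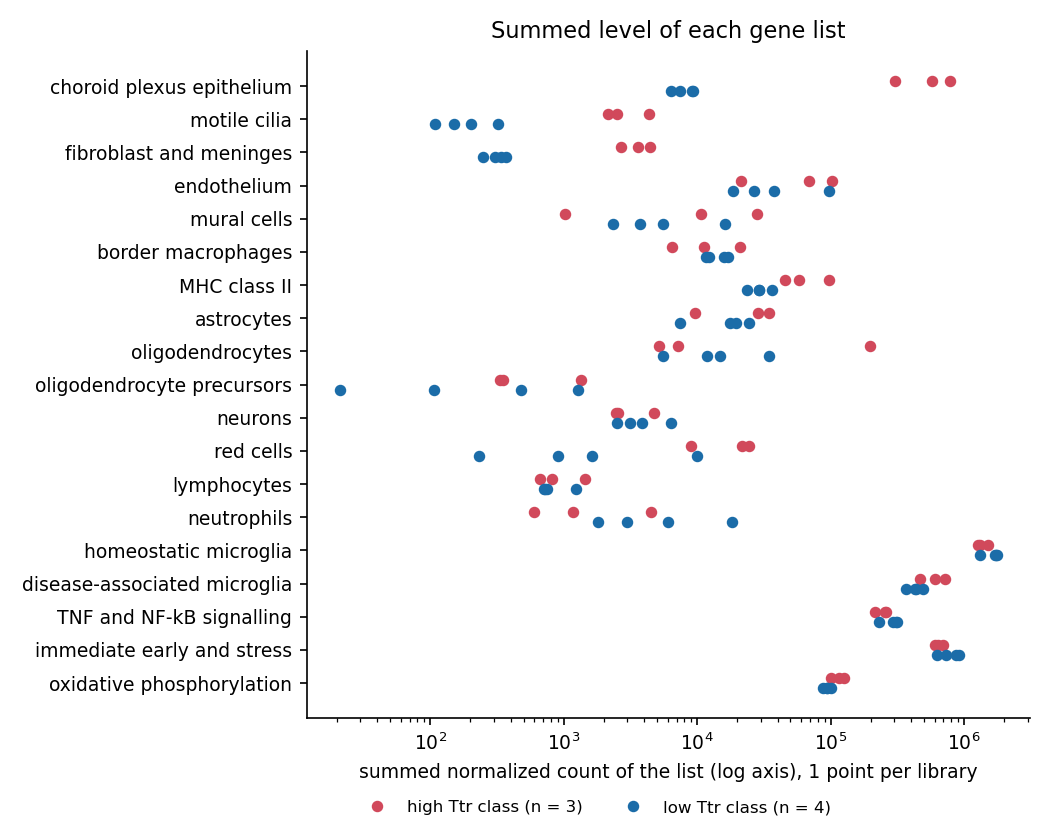
Summed normalized count (log axis) of each of the 19 gene lists, with 1 point per library, red for the 3 libraries of the high and blue for the 4 of the low Ttr class. The sums did not overlap for choroid plexus epithelium, motile cilia, fibroblast and meninges, and MHC class II, and overlapped for the other 15 lists.

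Genes of microglia themselves were expressed in both classes. Of 18 homeostatic microglia genes, all tested, 1 had a higher mean in the high class and the others a lower one, and 0 were called, with a median difference of -0.21 and sums of 1280553 to 1505888 in the high and 1322867 to 1760173 in the low class. Csf1r, the receptor that microglia need to survive, was at 170687 to 276731 and 206978 to 332461, and Cx3cr1, the fractalkine receptor, at 117303 to 162893 and 154055 to 192950. The label of these libraries as microglia is therefore borne out by their markers in each of the 7. Of 16 genes of TNF and NF-κB signalling 2 had a higher mean in the high class and 0 were called. Of 14 immediate early and stress genes 3 had a higher mean, and Egr2 was called lower (2.43% of all genes were), at 1974, 2137 and 5208 in Saline-2, PF4-2 and PF4-4 against 5713 to 9637. Of 22 genes of oxidative phosphorylation 17 had a higher mean and 3 were called higher (Ndufa1, Ndufa4 and Cox6c), against 3.75% of all genes. Ndufa4 was at 1455 to 2027 against 286 to 757. The share of all genes with a higher mean was not counted, and the median difference over all genes tested was -0.05.

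Of 7 genes of MHC class II, which present antigen to T cells, all were tested, 5 had a higher mean in the high class, and H2-Aa, H2-Eb1 and Cd74 were called higher, against 3.75% of all genes. Cd74, the invariant chain, was at 17536 in PF4-4, 11400 in PF4-2 and 7003 in Saline-2, and at 4677 in PF4-1, 4406 in Saline-4, 3737 in Saline-3 and 3735 in PF4-3. H2-Eb1 was at 19350, 8411 and 7417 in PF4-4, PF4-2 and Saline-2 against 862 to 5334, and its highest low library was PF4-1. H2-Ab1 was not called because Saline-2 (11377) was just below PF4-1 (11467). H2-DMa, a peptide-loading factor, was at 7404 to 8739 against 8405 to 9988, with a difference of -0.16. Border macrophages of choroid plexus and meninges also carry these genes. Of the 9 genes on their list Ms4a7 was called higher and F13a1 lower, against 3.75% and 2.43% of all genes. The sum of the list was 6441 to 20911 in the high and 11739 to 16883 in the low class. Mrc1, the mannose receptor CD206, was at 4015 in PF4-4 and 888 in PF4-2 but at 225 in Saline-2, against 473 to 1942. Of 15 genes of disease-associated microglia 13 had a higher value in the high class, while the median difference over all genes tested was -0.05. Only Lgals3, galectin-3, was called, which at 3.75% of all genes called higher does not set the list apart. Apoe did not overlap between the classes (the share of all genes higher without overlap, at any size, was 5.33%, and lower 3.95%), at 280004 to 482996 against 189605 to 270874, with a difference of 0.72 that was below the call. Whether choroid plexus macrophages have a part in these values was not tested.

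The class difference was present in both treatments. The choroid plexus list had a median difference of 6.76 in the saline libraries (1 high against 2 low) and 8.22 in the PF4 libraries (2 against 2). Over all genes tested the medians were 0.00 and 0.00. Across genes, which are not replicates, the differences in saline and in PF4 correlated at 0.0848 over the 11320 genes and at 0.503 over the 41 of the list. The 2 treatments share no library, but both were split on Ttr.

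No choroid plexus transcript passed the test of PF4 against saline. The high class held 2 of the 4 PF4 and 1 of the 3 saline libraries. Fitted with limma over the 7 libraries, Ttr differed by 1.93 ± 2.76 (SE) on the log2 scale between PF4 and saline (adjusted p = 0.982), and Enpp2 by 2.08 ± 2.58 (adjusted p = 0.982). Of all genes tested, 44 (0.389%) had an unadjusted P below 0.01, 25 higher (0.221%) and 19 lower (0.168%) after PF4, and 0 passed an adjusted p of 0.05, while 391 had an unadjusted P below 0.05 (0 adjusted with edgeR and 41 with DESeq2). None of the 44 was among the 424 genes higher or the 275 lower in the high class. Genes that separate the classes vary within both treatments, so they could hardly pass without the class as a term. Of the 41 choroid plexus genes tested 0 were among the 44, which at 0.389% of all genes does not set the list apart. The median PF4 minus saline difference of the 41 was 2.24 against 0.03 over all genes, and 0.96 with the Ttr class as a term. With that term 48 genes (0.424%) had a P below 0.01, of which 34 were among the 44. One of the 48 was called higher in the high class: Chchd10, a mitochondrial protein, at 4244 in PF4-2, 2142 in PF4-4, 746 in Saline-2, 394 in PF4-1, 224 in PF4-3, 82.7 in Saline-3 and 32.8 in Saline-4. Without the 3 high libraries, 7 genes had a P below 0.01 and 0 of them were among the 44.

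Of the list of TNF and NF-κB signalling, Tnfsf13b and Nfkbia were examined beside the classes because the study names them as decreased in microglia by PF4. They are not an unselected look at the list. Tnfsf13b, the B cell survival factor BAFF, was at 2962, 2697 and 1593 in Saline-2, Saline-3 and Saline-4 and at 1588, 1176, 850 and 557 in PF4-2, PF4-4, PF4-3 and PF4-1. All 4 PF4 libraries were below the 3 saline libraries. Its difference was -1.27 ± 0.43 (SE), with an unadjusted P of 0.0145 and an adjusted p of 0.982 by limma, and -1.40 with the class as a term, with P of 0.00393 and an adjusted p of 0.907. Nfkbia, the inhibitor that holds NF-κB in the cytoplasm, was at 127033, 141316 and 131988 in Saline-2, Saline-3 and Saline-4 and at 98578, 96279, 120117 and 110859 in PF4-1 to PF4-4. It differed by -0.33 ± 0.15 (SE), with P of 0.0481 and an adjusted p of 0.982 by limma, and by -0.32 with the class as a term. Tnf, Tnfaip3 and Nfkbiz, the most expressed of the list beside Nfkbia, differed by -0.35, -0.31 and -0.15. Their unadjusted P was 0.127, 0.190 and 0.425 by limma.

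Whether the same transcripts run with Ttr in libraries that did not form the classes was tested in the 17 hippocampi. Their normalized Ttr count ranged from 848 to 54993 with a median of 19359, and each treatment spanned most of that range: 848 to 30495 after saline, 1897 to 43232 after young plasma and 1622 to 54993 after the young platelet fraction. The slope of each gene on log2 Ttr was fitted by limma with treatment as a term, and a slope of 1 means change in proportion. Of 13905 genes tested, 275 (1.98%) rose with Ttr and 39 (0.28%) fell at an adjusted p of 0.05. Of the choroid plexus list without Ttr, 49 genes were tested, 44 rose and 0 fell, with a median slope of 0.62 against 0.00 over all genes. The counts over all genes rested partly on single libraries, since 531 rose and 234 fell without young plasma hippocampus 2 and 5 fell without saline hippocampus 3, while 42 to 45 choroid plexus genes rose without any 1 library.

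Folr1 rose almost in proportion to Ttr, from 16.7 to 974 normalized counts with a slope of 0.94 ± 0.02 (SE, adjusted p = 2.46e-15 by limma). Kcnj13 had a slope of 0.86 ± 0.04 (SE) and Enpp2 of 0.64 ± 0.04, both higher in the hippocampi with more Ttr. Otx2 rose with a slope of 0.62 and Lmx1a of 0.64, although each was missing in 1 of the 3 high microglia libraries. The 5 members that did not pass were Bmp7, Slc4a10, Slc29a4, Stra6 and Ezr. Slc4a10 had a slope of 0.32 ± 0.10 (SE, adjusted p = 0.143 by limma), and in the hippocampus it is also a transporter of neurons. Slc31a1 rose in hippocampi with a slope of 0.30, whereas its microglial classes overlapped.

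**Figure D5:**
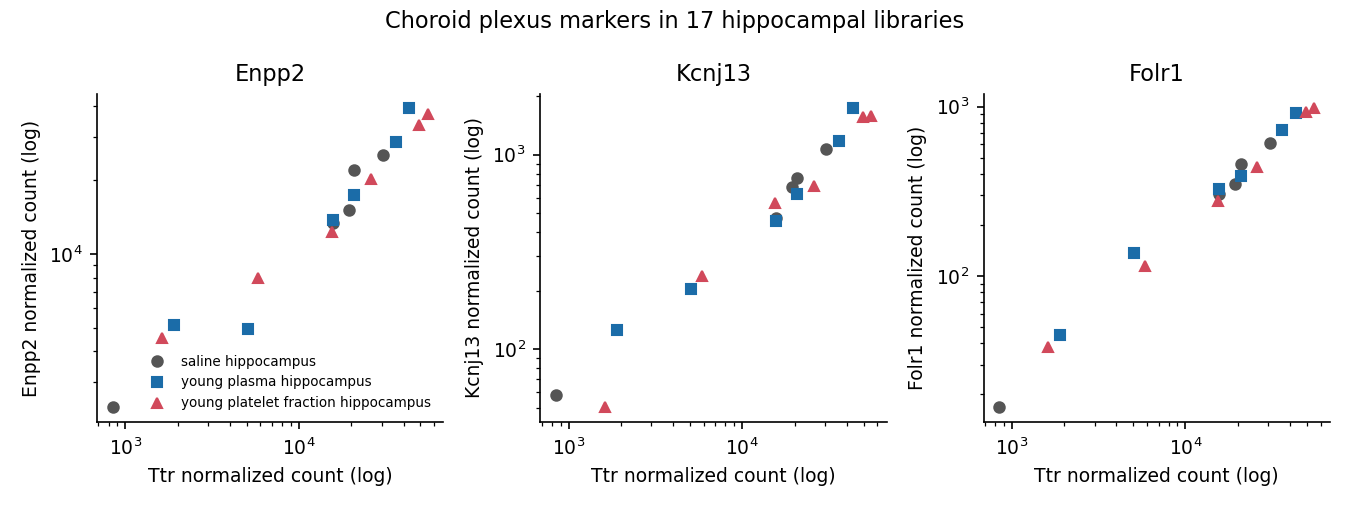
Normalized counts of Enpp2, Kcnj13 and Folr1 (y axes) against Ttr (x axes), both on log axes, in 17 hippocampal libraries, 1 point per library and 1 symbol per treatment. All 3 genes rose with Ttr across the 3 treatments, with slopes of 0.64, 0.86 and 0.94 on the log2 scale.

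Part of the genes called higher in the microglial high class also rose with Ttr in hippocampi. Of 407 such genes tested there, other than Ttr, 72 rose (17.7%) and 0 fell, against 0.998% of the 10023 genes tested in both and not called. Outside all 19 lists, 38 of 359 rose (10.6%). Among these were Drc7 with a slope of 0.62, Spint2 with 0.30, Sulf1 with 0.65 and Ccdc108 with 0.39. Further genes of the 38, picked as examples after seeing their values, were Trpm3, a steroid-gated cation channel of choroid plexus (1118 to 2151 against 3.04 to 7.41 in microglia, slope 0.47), Pcolce and Pcolce2, enhancers of procollagen processing (slopes 0.36 and 0.36), and Cox8b, a subunit of cytochrome oxidase (58.3 to 1073 against 0 to 0.817, slope 0.82). Ifi27, an interferon-inducible gene, differed by only 1.26 in microglia (6301 to 7075 against 2560 to 2922) and rose with a slope of 0.17 ± 0.03 (SE, adjusted p = 0.00245 by limma).

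Some genes called higher in microglia did not pass the test in hippocampi. Ptgds had a slope of 0.00 ± 0.09 (SE, adjusted p = 0.989 by limma) and Aldh1l1 of -0.01 ± 0.02 (SE, adjusted p = 0.927 by limma), and both are expressed by other cells of the hippocampus. Igf2 had a slope of 0.30 ± 0.08 (SE, adjusted p = 0.054 by limma). Of the cilia list 9 of 20 rose and 0 fell, against 1.98% and 0.28% of all genes. Among the 9 were Pifo (0.52) and, of the 4 called in microglia, Mia (0.35), Tekt1 (0.34) and Cfap126 (0.29). Tppp3 had a slope of 0.04 and did not pass. Of the 15 genes of fibroblasts and meninges only Dpep1, a dipeptidase, rose. Of the 7 MHC class II genes 0 passed, and the slopes of H2-Aa, H2-Ab1 and H2-Eb1 were 0.25 ± 0.11 (SE), 0.20 ± 0.09 and 0.21 ± 0.08, with adjusted p of 0.288, 0.271 and 0.207 by limma. Of the 18 homeostatic microglia genes 0 rose or fell. With 1.98% of all genes rising and 0.28% falling, the counts of the fibroblast, MHC class II and homeostatic lists do not set these lists apart. Of 254 genes called lower in the high class and tested in hippocampi, 0 rose and 2 fell (0.787%, against 0.28% of all genes): Ncdn, a neuronal protein, and Hira, a histone chaperone.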

How the data were processed

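Male C57/Bl6 mice aged 20 months gave 7 libraries of CD11b-captured hippocampal microglia, and aged mice gave 17 of bulk hippocampus. The methods describe Smart-Seq2 for microglia, whereas the labels name a strand-specific kit. The authors used STAR for alignment to the mm10 transcriptome, RSEM for read counts and DESeq2 for differential expression, as the methods state for microglia. The deposited values are normalized counts (unit: signal), gene counts divided by a size factor per library. Division by the step of each library gave whole reads for all values (tolerance 0.01), with 19855188 to 36342162 reads per microglia library and 6140510 to 10522699 per hippocampus, and only these reads entered edgeR and DESeq2.

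The members and gene lists were chosen with earlier results of these data known. Genes with a normalized count of 10 in at least 3 microglia libraries, or 5 hippocampi, were kept and log2(value + 1) was used, which understates changes of low genes. Treatments were compared by limma 3.58.1 (R 4.3.3) with Benjamini-Hochberg adjustment (P of 0.01, adjusted p of 0.05), and the hippocampal slope on log2 Ttr by limma with treatment as a term. Alternatives used edgeR 4.0.16, DESeq2 1.42.0, other scalings, filters, pseudocounts and left-out libraries, and the fits were tested on simulated data. Named genes were the 4 markers, the 12 largest differences in each direction among genes with classes that did not overlap and a mean of at least 50, and up to 4 per list (10 for choroid plexus). They also included the choroid plexus transcription factors, and Nfkbia and Tnfsf13b, which the study names for microglia. Genes at 0 in a class were bounded at 3 reads per library. Promoters came from RefSeq GRCm38.p6. Intervals are not given for single values, and the number of libraries limits the precision.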

Additional observations from a re-analysis of the deposited data

Results flagged for a closer look

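In 42 groups of values tested for a library far from the others, 5 were found, and chance gives about 1 in 20. All 5 were in PF4 microglia, but the saline microglia were too few for this test and only hippocampal groups were tested beside them. Mrc1 is also part of the border macrophage sum, so the 5 are not independent. In PF4-4 the summed border macrophage list was 20911 against 11182 to 12353 in the other 3 PF4 libraries, the summed oligodendrocyte list was 198380 against 5135 to 11869, and Mrc1 was at 4015 against 473 to 888. In PF4-1 the summed neutrophil list was 18277 against 598 to 1811, and Ltf was at 6642 against 0.947 to 692.

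Among the named genes and the choroid plexus list, 10 genes had classes in opposite order in saline and in PF4, without overlap in either. The share of all genes with this pattern was not counted, and the difference between treatments was not tested. With so few libraries the pattern can arise by chance. The log2 difference in saline and in PF4 was -0.32 and 0.90 for Slc31a1, -1.64 and 3.01 for Cab39l, a scaffold of the LKB1 kinase, 3.46 and -4.51 for Myh11, smooth muscle myosin, and -2.45 and 5.85 for Mobp, a myelin protein. For the macrophage genes Mrc1 and Cd163 it was -3.05 and 1.73, and -5.33 and 2.09. For the neuronal genes Camk2a and Prox1 it was 0.51 and -0.70, and 1.68 and -7.46. It was -0.064 and 0.15 for Ccl4, a chemokine, and -0.16 and 0.94 for Uqcrc1, a subunit of respiratory complex III. The saline side rests on Saline-2 alone.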

How the results depend on the processing

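Of the choroid plexus list, 34 to 39 members were called higher and 0 lower without any 1 library, and 42 to 45 rose with Ttr in hippocampi. Leaving out a microglia library eases the rule of no overlap, so the microglial calls could hardly fall. Their ranges therefore do not show how stable the calls are. Calls over all genes moved more. Without any 1 microglia library 532 to 881 genes were higher and 365 to 706 lower in the high class. With a required difference of 2 on the log2 scale 180 were lower. The saline libraries alone gave 2627 higher and 2482 lower, with 1 choroid plexus gene lower, and the PF4 libraries alone 1224 and 1052. Of PF4 against saline, 179 genes had a P below 0.01 and 41 passed adjustment with DESeq2, 29 had a P below 0.01 with the replicate block, and 7 without the 3 high libraries. Without any 1 library it was 22 (without PF4-4) to 129 (without Saline-4), with 0 adjusted. Choroid plexus genes among them numbered 1 with edgeR, 1 with the replicate block, 2 with DESeq2, 0 to 2 without any 1 library, and 2 by edgeR with the class as a term, which was added after seeing the data. In hippocampi 171 genes rose with a filter of 50, and 176 rose and 0 fell without the 2 libraries farthest in Ttr. With DESeq2 128 fell and with no term for treatment 63 fell. Without any 1 hippocampus 214 to 531 rose and 5 to 234 fell, and of the genes higher in the high class 62 to 89 rose. The PF4 minus saline difference of Folr1 changed sign to -0.42 with log2 Ttr as a covariate, -0.48 without the 3 high libraries, -0.10 without PF4-2, -0.0052 without PF4-4 and -0.00426 without Saline-4, and was 3.98 without Saline-2. The cause was not tested for these, beyond the smaller number of libraries. The labels do not say whether replicate numbers pair the samples, and the numbers were not taken as pairs. Deviations of samples with the same replicate number correlated at 0.136, 0.0586 and 0.0321. Samples with different numbers were not correlated for reference, so these values cannot decide about pairing. With 3 and 4 libraries, the depth of a gene at 0 in some libraries limits its calls.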
